A study of Mus musculus with 45 samples.

Results

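The 8 genes followed here are genes that heart muscle turns up or down under mechanical load, read from an array study of mouse hearts exposed to cigarette smoke on 2 diets. They were Nppb, Tnfrsf12a, Rcan1, Ankrd1, Xirp1, Acta1, Myh7 and Myh6, 8 of the 12394 genes that the array measured with a probe set of a single annotated gene. They were chosen by name as known markers of ventricular stretch and hypertrophy, with earlier results of these data known. Counts of called members are therefore given without a test of the set. All 8 passed the filter on low values, so that 8 of the 9295 genes tested were members, and 12 probe sets carried them. Hearts came from 45 male C57BL/6 mice with no transgene, and each heart was measured on its own array. Diet-induced obese (DIO) mice received a high-fat chow (60 kcal% fat), begun when they were 6 weeks old and kept up for 9 weeks ahead of the exposures. Regular weight (RW) mice stayed on ordinary chow of about 5 kcal% fat. At 15 weeks of age all mice began nose-only exposure for 5 h a day, with 8 exposures over 2 weeks, and hearts were taken on the day after the last one. The mice breathed sidestream smoke (SS, the smoke from the burning tip), mainstream smoke (MS, the smoke drawn through the cigarette) or filtered air (SC). There were 8 DIO-SS, 6 DIO-MS, 8 DIO-SC, 7 RW-SS, 8 RW-MS and 8 RW-SC arrays, which the labels call biological replicates. One label text speaks of a lipopolysaccharide study instead of smoke, and the groups were taken from the titles, which name the smoke.

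When the ventricular wall is stretched or overloaded, myocytes release natriuretic peptides, strengthen the sarcomere and its anchoring Z-disc, and return in part to a fetal set of contractile proteins. Nppb encodes B-type natriuretic peptide, the hormone that lowers blood volume and vessel tone. Calcium that enters the loaded myocyte activates the phosphatase calcineurin and, through NFAT factors, the feedback inhibitor Rcan1. In the mouse ventricle the fetal heavy chain Myh7 and the skeletal actin Acta1 are textbook signs of hypertrophy, and Myh6 is the heavy chain of the healthy adult.

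The values are log2 expression values after RMA, a procedure that corrects background, aligns the arrays and summarises the probes of a probe set. A change is the difference between 2 group means on that scale, given with its standard error (SE) from limma, and p-values were adjusted over all 9295 genes of a comparison with a threshold of 0.05. Array medians lay between 6.20 and 6.24. The summed level of 10 cardiomyocyte markers (the log2 of their summed linear values) lay between 16.84 and 16.95 on every array, so the tissue matched its label. Atrial tissue differed between hearts: RW-MS 2, 6 and 8 nearly lacked atrial transcripts, with the atrial regulator Sln at 4.47 to 5.42 against 12.16 to 12.97 on the other 5 RW-MS arrays. The 13 atrial markers together had a summed level of 11.73 to 15.20 in RW-MS hearts, against 14.04 to 15.14 in RW-SC hearts. The Gapdh probe sets differed by 0.94 between their 3' and 5' ends on RW-SS 7 and by at most 0.40 in the other groups. In RNA of whole hearts, fewer cells of a type and less RNA per cell cannot be told apart.

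In regular weight mice both smokes went with lower Nppb, Tnfrsf12a and Rcan1, while each of the other 5 members was called with 1 smoke or with none. With mainstream smoke 5 of 8 members passed the threshold, 1 higher (Ankrd1) and 4 lower (Nppb, Tnfrsf12a, Rcan1 and Myh7), beside 6.86% of all genes tested, 2.86% higher and 4% lower. With sidestream smoke 4 of 8 passed, all lower (Nppb, Tnfrsf12a, Rcan1 and Acta1), beside 24.6% of all genes and 13% lower. The median change of the 8 members was -0.19 in RW-MS and -0.14 in RW-SS hearts, and the median of all genes tested was 0.00 in each comparison. Both comparisons use the same 8 RW-SC hearts, so a high or low draw of those controls would enter each of them. In DIO mice 0 of 8 members passed with mainstream smoke (beside 4.55% of all genes) and 1 of 8, Tnfrsf12a, with sidestream smoke (beside 31.8% of all genes and 8.82% lower). On the probe sets that stood for the genes, 1 member had an unadjusted limma p below 0.05 in DIO-MS hearts (Tnfrsf12a). In DIO-SS hearts 2 did (Nppb and Tnfrsf12a). Without the 3 atrium-poor RW-MS arrays the count in RW-MS hearts was 3, Nppb, Tnfrsf12a and Rcan1.

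**Figure D1:**
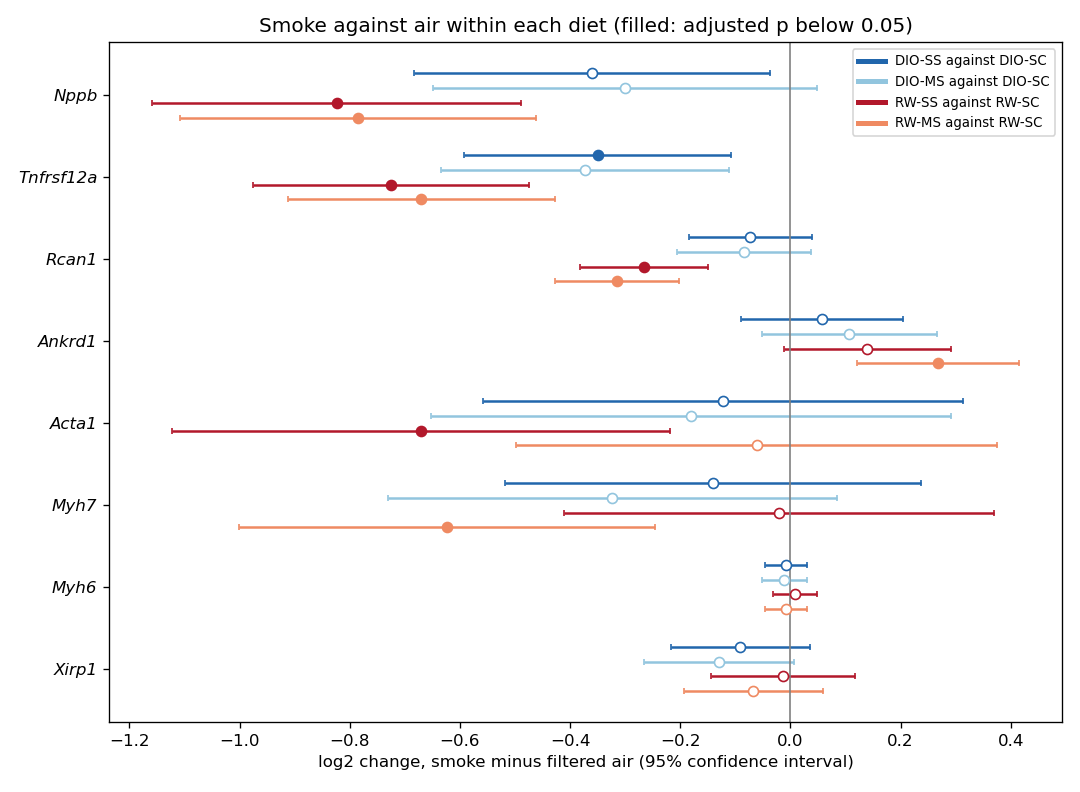
Log2 change of the 8 members with smoke against filtered air within each diet (x axis), with 95% confidence intervals from limma. Filled points have an adjusted p below 0.05: in RW mice Nppb, Tnfrsf12a and Rcan1 lie below 0 with both smokes, Ankrd1 above 0 with mainstream smoke, Myh7 below 0 with mainstream and Acta1 with sidestream smoke, and in DIO mice only Tnfrsf12a with sidestream smoke is filled.

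Nppb, the stretch hormone, was among the more abundant transcripts of the heart, its mean being above that of 98.1% of the genes measured. The lowest, median and highest values were 11.22, 11.65 and 12.04 in RW-SS hearts and 11.40, 11.57 and 12.17 in RW-MS hearts, against 12.22, 12.50 and 12.81 in RW-SC hearts. Every smoke-exposed RW heart thus lay below every RW heart in air. Only 0.667% of all genes with mainstream and 3.26% with sidestream smoke were lower without any overlap of the groups. On the linear scale Nppb fell by 43.5% in RW-SS hearts (-0.82 ± 0.17, limma adjusted p = 0.000277, n = 7 and 8) and fell by 42.0% in RW-MS hearts (-0.78 ± 0.16, adjusted p = 0.00119, n = 8 and 8). In DIO hearts the values were 11.30, 11.99 and 12.43 with sidestream and 11.12, 11.91 and 12.45 with mainstream smoke, against 11.58, 12.26 and 12.61 in air. These groups overlapped broadly, and DIO hearts in air already reached down to the range of the smoke-exposed RW hearts. Nppb was lower than the DIO-SC mean in 7 of 8 DIO-SS hearts (-0.36 ± 0.16, limma adjusted p = 0.0790), and it passed without DIO-SC 3 (adjusted p = 0.0281) or DIO-SS 3 (adjusted p = 0.0328). It was lower in 4 of 6 DIO-MS hearts (-0.30 ± 0.17, limma adjusted p = 0.374). Leaving out the atrium-poor RW-MS 2, 6 and 8, whose Nppb averaged 11.52 against 11.82 on the other 5 RW-MS arrays, gave a fall of -0.67 (limma adjusted p = 0.0271).

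Tnfrsf12a encodes Fn14, the receptor of the cytokine TWEAK, which injured and overloaded myocytes display. Its probe set 1418571_at gave 8.61, 8.71 and 9.05 (lowest, median and highest) in RW-SS hearts and 8.41, 8.88 and 9.16 in RW-MS hearts, against 9.26, 9.49 and 10.01 in RW-SC hearts. As for Nppb, no smoke-exposed RW heart reached the range of the RW hearts in air. Tnfrsf12a fell by 39.5% in RW-SS hearts (-0.73 ± 0.12, limma adjusted p = 3.01e-05) and fell by 37.2% in RW-MS hearts (-0.67 ± 0.12, limma adjusted p = 0.000223). DIO-SS hearts gave 8.93, 9.11 and 9.31 and DIO-MS hearts 8.58, 9.20 and 9.34, against 9.07, 9.38 and 10.02 in DIO-SC hearts. Here the groups overlapped, but all 8 DIO-SS and all 6 DIO-MS hearts lay below the mean of DIO-SC. In DIO-SS hearts it fell by 21.5% (-0.35 ± 0.12, limma adjusted p = 0.0233). It lost the call without DIO-SC 4, 5 or 7, the 3 highest DIO controls (adjusted p between 0.0506 and 0.0753). The DIO-MS change was about as large, -0.37 ± 0.13, and was not called (limma adjusted p = 0.0868), although it passed without DIO-SC 2 (adjusted p = 0.0491). A second probe set of the gene, 1418572_x_at, followed the first with r = 0.99 over the 45 arrays and gave -0.75 in RW-SS, -0.73 in RW-MS and -0.36 in DIO-SS hearts.

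Rcan1, the inhibitor that calcineurin induces against itself, moved less but with little scatter. RW-SS hearts gave 8.68, 8.70 and 8.93 and RW-MS hearts 8.55, 8.71 and 8.82, against 8.88, 8.99 and 9.33 in RW-SC hearts. The RW-MS range lay wholly below that of RW-SC, and 2 of 7 RW-SS hearts (6 and 7) reached into it. Rcan1 fell by 19.6% in RW-MS hearts (-0.31 ± 0.06, limma adjusted p = 0.000185) and fell by 16.8% in RW-SS hearts (-0.27 ± 0.06, limma adjusted p = 0.000695). DIO-SS hearts gave 8.76, 8.84 and 9.02 and DIO-MS hearts 8.71, 8.82 and 9.08, against 8.78, 8.94 and 9.05 in DIO-SC hearts, which is a nearly complete overlap. The changes there were -0.07 ± 0.06 with sidestream (limma adjusted p = 0.329) and -0.08 ± 0.06 with mainstream smoke (limma adjusted p = 0.504). A weaker second probe set, 1416601_a_at, gave -0.32 in RW-MS hearts (limma adjusted p = 0.0442) and -0.26 in RW-SS hearts (limma adjusted p = 0.0545), and it correlated with the first at r = 0.64.

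**Figure D2:**
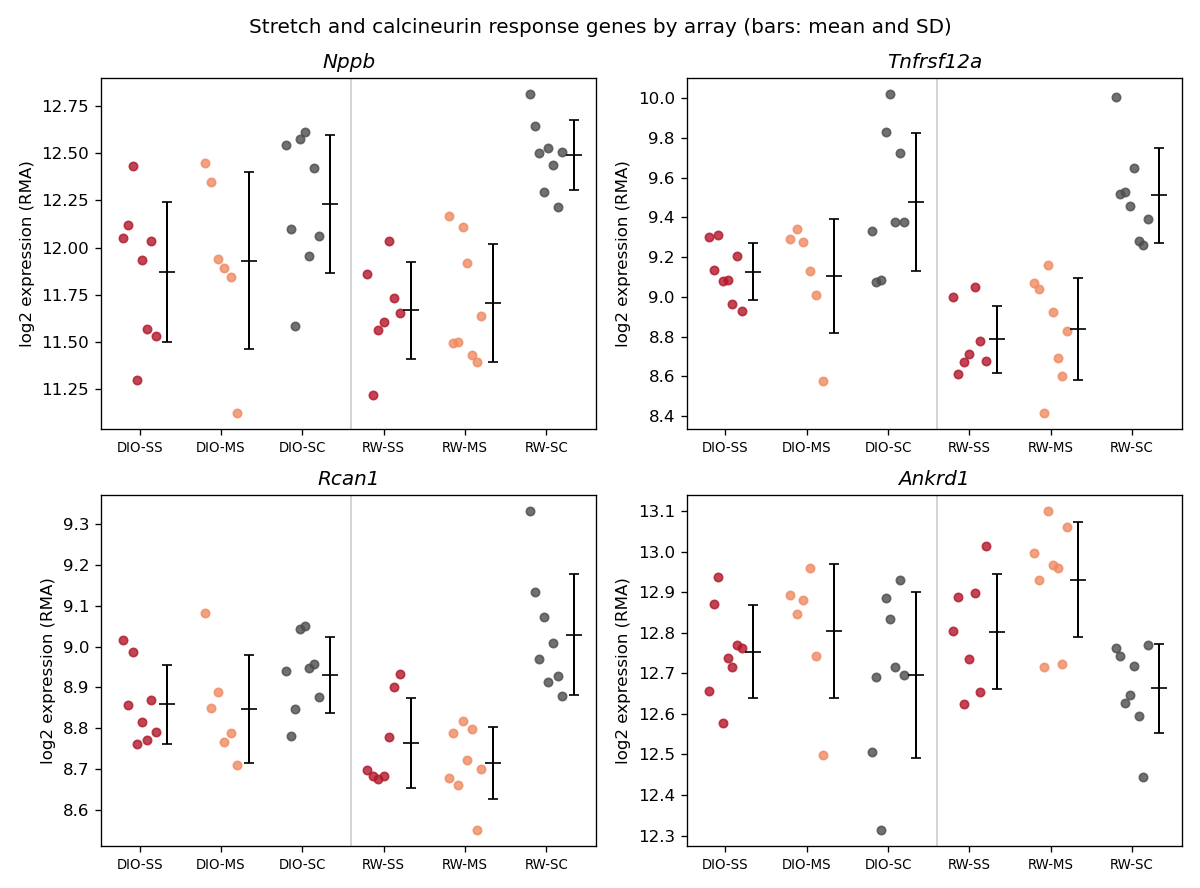
Log2 expression (RMA, y axes) of Nppb, Tnfrsf12a, Rcan1 and Ankrd1 on each of the 45 arrays by group, with the group mean and SD beside the points. The RW-SC arrays of Nppb (12.22 to 12.81) and Tnfrsf12a (9.26 to 10.01) stand above all RW-SS and RW-MS arrays, Ankrd1 runs the other way in RW-MS, and the DIO groups overlap.

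The start regions of these genes are shown because 3 of them fell together in RW mice and Ankrd1, which shares a regulatory motif with Nppb, rose there with mainstream smoke. They are the 250 bases before the RefSeq transcription start (GRCm38.p6), 5' to 3' on the gene's strand, with motif matches in capitals. RefSeq gave such windows for 7 of the 8 members, 9 windows in all. Motifs of cardiac and calcium signalling were searched on both strands, and a match on the other strand shows its reverse complement in capitals. CATTCC is the MCAT element that TEAD factors bind. AGATAA is bound by GATA factors and TTTCC is the core of NFAT sites. TGACTCA is the AP-1 site, and TGACGTCA the cyclic AMP response element (CRE). CACGTG is the E-box and TATAAA the TATA box. The CArG box of the serum response factor SRF was matched as CC and GG around 6 bases that are each A or T.
Nppb (chr4:147985650-147985899, plus strand): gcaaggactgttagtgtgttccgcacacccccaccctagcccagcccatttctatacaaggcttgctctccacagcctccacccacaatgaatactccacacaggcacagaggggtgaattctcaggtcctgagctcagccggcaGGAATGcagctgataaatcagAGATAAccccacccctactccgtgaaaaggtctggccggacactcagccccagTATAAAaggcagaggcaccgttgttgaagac
Tnfrsf12a (chr17:23677450-23677699, minus strand): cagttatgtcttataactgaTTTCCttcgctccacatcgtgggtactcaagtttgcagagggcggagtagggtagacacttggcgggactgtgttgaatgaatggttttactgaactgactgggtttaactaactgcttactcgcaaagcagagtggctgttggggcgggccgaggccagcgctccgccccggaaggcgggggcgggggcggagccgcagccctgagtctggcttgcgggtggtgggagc
Rcan1, first start of the gene (chr16:92466170-92466419, minus strand): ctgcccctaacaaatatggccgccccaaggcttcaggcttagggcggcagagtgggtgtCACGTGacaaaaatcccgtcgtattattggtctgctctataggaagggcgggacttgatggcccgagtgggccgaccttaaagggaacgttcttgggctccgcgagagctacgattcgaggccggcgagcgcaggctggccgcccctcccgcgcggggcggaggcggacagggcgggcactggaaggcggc
Rcan1, start inside the gene (chr16:92400079-92400328, minus strand): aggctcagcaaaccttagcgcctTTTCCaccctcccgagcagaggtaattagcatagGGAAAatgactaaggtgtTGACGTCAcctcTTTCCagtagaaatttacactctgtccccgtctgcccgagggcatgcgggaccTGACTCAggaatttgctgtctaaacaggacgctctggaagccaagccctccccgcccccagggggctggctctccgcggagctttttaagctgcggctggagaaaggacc
Ankrd1 (chr19:36119845-36120094, minus strand): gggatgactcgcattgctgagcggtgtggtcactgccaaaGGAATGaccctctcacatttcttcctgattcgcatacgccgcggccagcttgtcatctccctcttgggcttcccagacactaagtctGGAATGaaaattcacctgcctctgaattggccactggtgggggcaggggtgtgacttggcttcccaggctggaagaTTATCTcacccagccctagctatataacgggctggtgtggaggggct
Acta1 (chr8:123894776-123895025, minus strand): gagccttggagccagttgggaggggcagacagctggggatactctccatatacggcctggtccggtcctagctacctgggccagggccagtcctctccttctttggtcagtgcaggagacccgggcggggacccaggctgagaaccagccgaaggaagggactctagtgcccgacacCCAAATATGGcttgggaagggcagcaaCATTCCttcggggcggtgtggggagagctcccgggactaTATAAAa

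Nppb, whose annotated gene spans chr4:147985786-147987205, held an MCAT element at 105 to 100 bases before the start, a GATA match at 84 to 79 and a TATA box at 31 to 26. The start used here lies inside that span, as do the last 114 bases of the window with all 3 matches. Ankrd1 (gene at chr19:36111965-36119844) held 2 MCAT elements, at 210 to 205 and 123 to 118, and a GATA match at 47 to 42. MCAT letters occurred in 12.6% and the GATA letters in 9.99% of all 32851 windows, so the gene that fell and the gene that rose held the same 2 motifs. Tnfrsf12a (gene at chr17:23675445-23677449) held only the short NFAT core, which 55.6% of all windows hold. Rcan1 (gene at chr16:92391951-92466169) has 2 windows. The one before the gene's first start held an E-box (6.02% of all windows) and none of the other motifs. The other lies inside the gene, at the start of the shorter form that calcineurin is known to induce, and held 3 NFAT cores, a CRE (1.55% of all windows) and an AP-1 match (4.46%), none of which overlapped another. Acta1 (gene at chr8:123891758-123894775) held a CArG box at 73 to 64 (1.47% of windows), an MCAT element at 46 to 41 and a TATA match at 7 to 2, and the window of Myh6, which lies inside its gene, and 1 of the 2 windows of Myh7, both on chromosome 14, held MCAT letters too. These are matches of letters, and binding was not measured.

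Ankrd1 encodes a titin-bound ankyrin repeat protein of the sarcomere that also acts in the nucleus and is counted among the stretch-induced genes. Unlike Nppb it was higher with mainstream smoke in RW mice, the only comparison in which it was called. RW-MS hearts gave 12.72, 12.96 and 13.10, against 12.44, 12.68 and 12.77 in RW-SC hearts, so 6 of 8 RW-MS hearts lay above every control. It rose by 20.4% in RW-MS hearts (0.27 ± 0.07, limma adjusted p = 0.0173), and all 8 lay above the mean of RW-SC. The second probe set, 1420991_at, gave 0.30 (limma adjusted p = 0.0246) and correlated with the first at r = 0.92. The call ended with the atrial marker mean as a covariate (0.25, adjusted p = 0.0538), without RW-MS 2, 6 and 8 (0.24, adjusted p = 0.109) and with the skeletal muscle marker mean as a covariate (0.23, adjusted p = 0.0879). RW-SS hearts gave 12.62, 12.80 and 13.01, a change of 0.14 ± 0.08 (limma adjusted p = 0.172), and the second probe set gave 0.04 there. The 13.01 was RW-SS 7, the array with the largest 3' minus 5' difference of Gapdh, which read 12.57 on the second probe set. In DIO hearts the changes were 0.06 ± 0.07 with sidestream and 0.11 ± 0.08 with mainstream smoke, and neither was called (limma adjusted p = 0.573 and 0.516). The second probe set gave larger values there, 0.13 and 0.19, not called either (limma adjusted p = 0.243 and 0.315 over all probe sets). Its DIO-MS change had an unadjusted limma p of 0.0363.

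Xirp1 encodes Xin, an actin-binding repeat protein of the intercalated disc, where myocytes pull on each other. It passed in no comparison, and its group means spanned 0.14, from 8.37 in DIO-MS to 8.51 in RW-SC hearts. All 8 DIO-SS and all 6 DIO-MS hearts lay below the DIO-SC mean, by -0.09 ± 0.06 (limma adjusted p = 0.270) and -0.13 ± 0.07 (limma adjusted p = 0.313).

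Each of the 2 fetal-type sarcomere genes was called with 1 of the smokes in regular weight hearts. Acta1, the skeletal actin of the fetal heart, gave 9.59, 10.15 and 10.69 in RW-SS hearts and 9.80, 10.77 and 11.41 in RW-MS hearts, against 10.05, 10.84 and 11.69 in RW-SC hearts. All 7 RW-SS hearts lay below the mean of RW-SC, although 4 of them were inside its range. Acta1 fell by 37.2% in RW-SS hearts (-0.67 ± 0.22, limma adjusted p = 0.0240) and changed by -0.06 ± 0.22 in RW-MS hearts (limma adjusted p = 0.923). That call was lost when RW-SC 1 (adjusted p = 0.0701), RW-SS 2 (adjusted p = 0.0634) or RW-SS 4 (adjusted p = 0.0571) was left out, and with the red cell marker mean as a covariate (-0.51, adjusted p = 0.231). The summed level of the 4 measured red cell markers was 9.48 to 11.18 in RW-SS hearts and 9.09 to 10.21 in RW-MS hearts, against 9.03 to 9.25 in RW-SC hearts. Its part in the Acta1 result was not tested beyond that covariate. In DIO hearts Acta1 was not called, at -0.12 ± 0.22 with sidestream and -0.18 ± 0.23 with mainstream smoke (limma adjusted p = 0.694 and 0.755).

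Myh7, the fetal heavy chain with slow ATPase, gave 8.47, 9.17 and 9.83 in RW-MS hearts and 9.07, 9.85 and 10.33 in RW-SS hearts, against 9.19, 9.86 and 10.26 in RW-SC hearts. The mainstream group was shifted down but overlapped the controls, and the sidestream group covered the same range as they did. In RW-MS hearts Myh7 fell by 35.1% (-0.62 ± 0.19, limma adjusted p = 0.0341, 7 of 8 hearts below the mean of RW-SC). Leaving out 1 of RW-SC 2, 3, 4 and 5, or 1 of RW-MS 2, 6 and 7, ended this call (adjusted p of 0.0555 to 0.0825), as did leaving out RW-MS 2, 6 and 8 together (adjusted p = 0.0890), adding the atrial covariate (adjusted p = 0.112) and fitting only the groups compared (adjusted p = 0.0715). The values of RW-MS 2, 6 and 8 averaged 9.13, against 9.18 on the other 5 RW-MS arrays. The RW-SS change was -0.02 ± 0.19 (limma adjusted p = 0.952). In DIO hearts Myh7 was lower than the DIO-SC mean in all 6 DIO-MS hearts (-0.32 ± 0.20, limma adjusted p = 0.424) and in 7 of 8 DIO-SS hearts (-0.14 ± 0.19, limma adjusted p = 0.590).

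**Figure D3:**
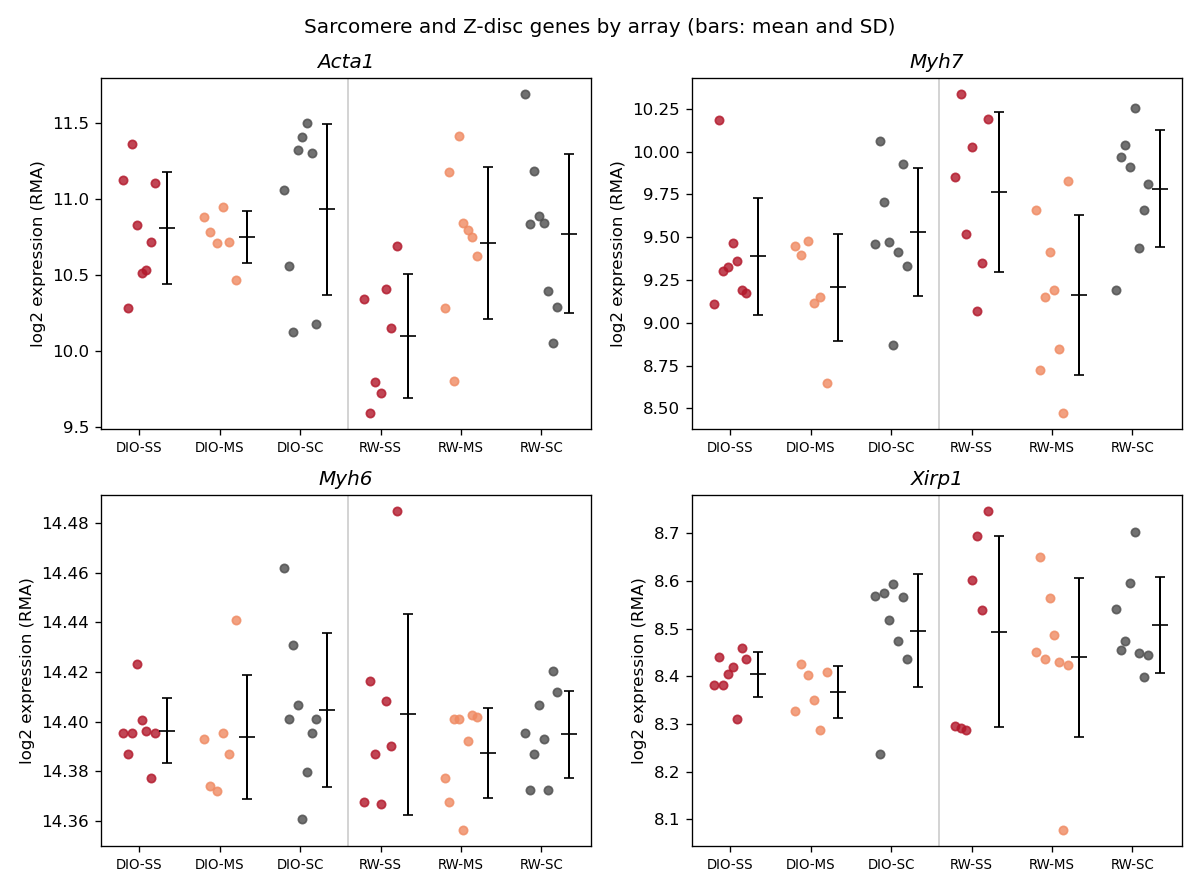
Log2 expression (RMA, y axes) of Acta1, Myh7, Myh6 and Xirp1 on each of the 45 arrays by group, with the group mean and SD beside the points. Acta1 is lowest in RW-SS (mean 10.10) and Myh7 in RW-MS (mean 9.16), while the Myh6 probe set 1448826_at reads 14.36 to 14.48 on all arrays, near the top of the scale.

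Direct comparison of the smokes in RW mice gave 0.60 ± 0.19 for Myh7 (sidestream minus mainstream, limma adjusted p = 0.0546) and -0.61 ± 0.22 for Acta1 (limma adjusted p = 0.0914). Neither passed, and 0 of 8 members did by limma, beside 5.82% of all genes. On the probe sets that stood for the genes, these 2 were the members with an unadjusted p below 0.05. Ankrd1 gave -0.13 ± 0.08 there. Its second probe set, 1420991_at, gave a larger difference, -0.25 ± 0.08, which was below that unadjusted level too. It did not pass the threshold over all probe sets, so a difference in Ankrd1 between the smokes was left undecided. Myh7 moved past the threshold in 6 of the 16 other settings and when RW-MS 1, RW-MS 8, RW-SS 3, RW-SS 5 or RW-SS 6 was left out (adjusted p of 0.0211 to 0.0496), and Acta1 did so without RW-MS 3 (adjusted p = 0.0402). The intervals of Nppb (-0.37 to 0.30), Tnfrsf12a (-0.31 to 0.20) and Rcan1 (-0.07 to 0.17) took in 0. In DIO mice 0 of 8 members differed between the smokes by limma (beside 2.55% of all genes), and 0 had an unadjusted p below 0.05.

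Myh6, the adult heavy chain, did not pass in any comparison on its brightest probe set, 1448826_at. That probe set read 14.40 on average, above 99.97% of the genes measured and close to the highest value in the table (14.77). Its group means spanned 0.017 and its SDs within groups 0.013 to 0.040. The other Myh6 probe set, 1417729_at, did not follow it (r = -0.35 over 45 arrays), whereas the paired probe sets of Ankrd1, Tnfrsf12a and Rcan1 all correlated above 0.6. It gave 0.13 ± 0.11 in RW-SS, 0.20 ± 0.11 in RW-MS, 0.02 ± 0.11 in DIO-SS and 0.23 ± 0.12 in DIO-MS hearts. None of these changes passed the threshold (limma adjusted p = 0.446, 0.384, 0.907 and 0.399). Which of its probe sets follows Myh6 better could not be told from these arrays. The small spread of the bright one thus does not show that Myh6 was stable. Within groups, Myh6 on the bright probe set correlated with the 3' minus 5' difference of Gapdh (r = 0.59 over 45 arrays). Its part in the Myh6 values was not tested. The remaining 2 probe sets that match both heavy chains were kept apart from either gene. One of them, 1448827_s_at, was lower in DIO-SC than in RW-SC hearts (-0.29, limma adjusted p = 0.0352). With mainstream smoke it gave 0.21 in RW-MS and 0.22 in DIO-MS hearts, not called (limma adjusted p = 0.256 and 0.327, unadjusted 0.0337 and 0.0397). The other, 1448554_s_at, gave -0.04 and -0.02 there. By group mean, 1448827_s_at and 1417729_at were both lowest in DIO-SC (10.40 and 9.76) and highest in RW-MS hearts (10.90 and 10.11).

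The high-fat diet alone moved none of the 8 members past the threshold (DIO-SC against RW-SC, 0 of 8 by limma, beside 20.3% of all genes), and 0 had an unadjusted p below 0.05. The largest differences were -0.26 ± 0.16 for Nppb (limma adjusted p = 0.255) and -0.25 ± 0.19 for Myh7 (limma adjusted p = 0.350). Rcan1 stood at -0.10 ± 0.06, Acta1 at 0.16 ± 0.22, Ankrd1 at 0.03 ± 0.07, Tnfrsf12a at -0.03 ± 0.12, and Xirp1 and Myh6 at -0.01 ± 0.06 and 0.01 ± 0.02. That Myh6 value is from the probe set near the top of the scale, and 1417729_at gave -0.15 ± 0.11 (limma adjusted p = 0.371 over all probe sets). Of the probe sets that match both Myh6 and Myh7, 1448827_s_at was lower (-0.29 ± 0.09, limma adjusted p = 0.0352). The other, 1448554_s_at, was not called (-0.06 ± 0.03, limma adjusted p = 0.189). The 95% intervals ran from -0.58 to 0.06 for Nppb and from -0.28 to 0.21 for Tnfrsf12a.

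Whether obesity changed the response is answered by the interaction, the smoke effect in DIO minus that in RW mice, since calls within each diet do not show a difference between diets. A positive interaction is a less negative or more positive change in DIO mice, and for genes that fell in RW mice that sign is favoured because the RW change enters it. For Nppb the interaction was 0.46 ± 0.23 with sidestream smoke (95% interval -0.002 to 0.93, limma adjusted p = 0.125) and 0.48 ± 0.24 with mainstream smoke (0.01 to 0.96, limma adjusted p = 0.431). Tnfrsf12a gave 0.38 ± 0.17 with sidestream (0.03 to 0.72, limma adjusted p = 0.0968) and 0.30 ± 0.18 with mainstream smoke (-0.06 to 0.65, limma adjusted p = 0.541). Rcan1 gave 0.19 ± 0.08 with sidestream (0.03 to 0.35, limma adjusted p = 0.0655) and 0.23 ± 0.08 with mainstream smoke (0.07 to 0.40, limma adjusted p = 0.246). The largest estimate with sidestream smoke was that of Acta1, 0.55 ± 0.31 (-0.08 to 1.18, limma adjusted p = 0.180). None of the 8 members passed in either interaction by limma, beside 28.4% of all genes with sidestream and 0.226% with mainstream smoke. Unadjusted p-values below 0.05 belonged to Tnfrsf12a and Rcan1 with sidestream and to Nppb and Rcan1 with mainstream smoke. With sidestream smoke Rcan1 passed without RW-SC 8, RW-SS 6 or RW-SS 7 (adjusted p between 0.0339 and 0.0454) and Tnfrsf12a without DIO-SC 5 (adjusted p = 0.0391). After a further quantile normalization the sidestream interaction was 0.09 for Rcan1 (adjusted p = 0.491). The 2 interactions share both groups of air controls.

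Ordered from low to high, Nppb ran RW-SS, RW-MS, DIO-SS, DIO-MS, DIO-SC and RW-SC, with means of 11.67, 11.71, 11.87, 11.93, 12.23 and 12.49 (SD 0.19 to 0.47). Tnfrsf12a and Rcan1 had the same ends of the scale: both smoke-exposed RW groups lowest, DIO-SC and RW-SC highest. No step between neighbours exceeded the larger of their SDs for Nppb or Rcan1. For Tnfrsf12a the step between DIO-SS (9.13 ± 0.14, SD) and DIO-SC (9.48 ± 0.35) did, and for Acta1 that between RW-SS (10.10 ± 0.41) and RW-MS (10.71 ± 0.50).

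Nppb, Tnfrsf12a, Rcan1, Acta1 and Ankrd1 also varied together from heart to heart within a group. With the group means taken out, Nppb and Tnfrsf12a correlated at r = 0.77 over the 45 arrays (rho 0.79, and r = 0.71 without the 2 most extreme arrays), and at 0.73 to 0.94 in each of the 6 groups. Tnfrsf12a correlated with Acta1 at 0.66 (0.40 to 0.90 in single groups) and with Rcan1 at 0.63, where single groups ran from 0.00 to 0.92, and Acta1 with Rcan1 at 0.63 (0.50 to 0.78). Ankrd1 belonged to the same set by this measure, at r = 0.66 with Tnfrsf12a and 0.62 with Nppb (0.57 and 0.49 without the 2 most extreme arrays), although the r with Nppb in single groups ran from 0.03 to 0.80. The weakest pairs among these genes were Nppb with Acta1 at 0.43 (0.16 to 0.78 in single groups) and Ankrd1 with Rcan1 at 0.45 (0.33 to 0.71). Ankrd1 with Acta1 stood at 0.51 (0.08 to 0.93). Over all arrays with the group differences left in, Ankrd1 had r = -0.01 with Tnfrsf12a and 0.06 with Nppb. Hearts with more Nppb thus had more Ankrd1 within a group, while mainstream smoke in RW mice went with less Nppb and more Ankrd1. Myh7 did not follow Nppb (0.11) or Acta1 (-0.24). Myh6, on its bright probe set, ran against Tnfrsf12a (-0.43) and Nppb (-0.33), below 0 in each single group. Without the 2 most extreme arrays these were -0.30 and -0.19. Xirp1 had 0.42 with Rcan1, close to the r of Nppb with Acta1. It had 0.37 with Tnfrsf12a, 0.34 with Acta1, 0.26 with Ankrd1 and 0.23 with Nppb. In single groups its r with each of these genes reached below 0. These correlations describe arrays that share 1 normalization.

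**Figure D4:**
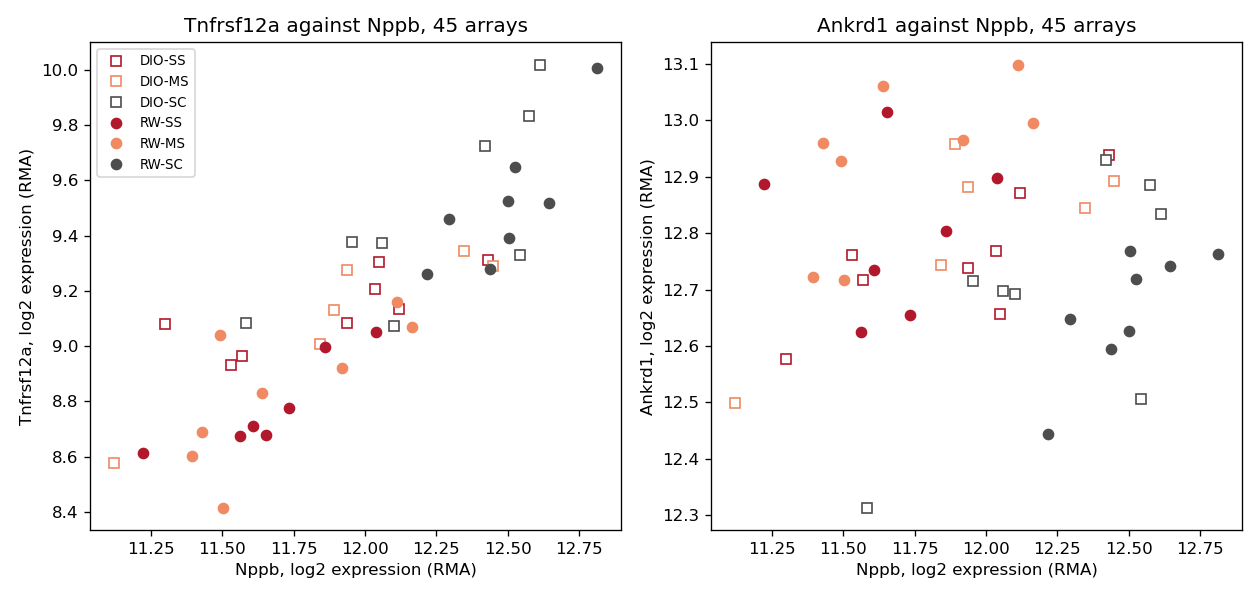
Tnfrsf12a (left) and Ankrd1 (right) against Nppb, log2 expression (RMA) on 45 arrays, 1 point per heart, coloured by exposure, with open squares for DIO and filled circles for RW mice. Tnfrsf12a follows Nppb across and within groups (r = 0.87 over all arrays), while Ankrd1 follows it within groups but not over all arrays (r = 0.06).

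By Pearson's r over the 45 arrays, the gene most like Nppb among all 9295 tested was Tnfrsf12a (0.87), followed by Rcan1 (0.77) and Klhdc8a (0.76). Tnfrsf12a had Nppb, Rcan1 (0.80) and Klhdc8a (0.80) as its nearest, and Rcan1 had Tnfrsf12a, Nppb and Ckap4 (0.75). These values hold the group differences. With the group means taken out, Nppb had r = 0.77 with Tnfrsf12a, 0.58 with Rcan1 and 0.48 with Klhdc8a. Tnfrsf12a then had 0.63 with Rcan1 and 0.45 with Klhdc8a, and Rcan1 had 0.59 with Ckap4. The other members had nearest genes outside the set: Hdhd5 for Ankrd1 (0.64), the heat shock protein gene Hspb8 for Acta1 (0.72), the thioredoxin gene Txn2 for Xirp1 (0.75), the catenin Ctnna1 for Myh6 (0.72) and Zfp346 for Myh7 (0.71). With the group means taken out these were 0.66, 0.71, 0.77, 0.77 and 0.61.

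Around Nppb, 11 other genes of natriuretic peptide signalling were listed and 8 were tested. In RW-MS hearts 0 rose and 2 fell, beside 4% of all genes lower: the atrial peptide Nppa (-1.12 ± 0.36, limma adjusted p = 0.0496) and the clearance receptor Npr3 (-0.56 ± 0.14, limma adjusted p = 0.0112). Without the atrium-poor RW-MS 2, 6 and 8 these were 0.11 (adjusted p = 0.725) and -0.24 (adjusted p = 0.364), so among hearts with atrial tissue Nppb was lower in RW-MS and Nppa was not. In RW-SS hearts Corin, the protease that activates atrial natriuretic peptide, rose (0.24 ± 0.07, limma adjusted p = 0.00629) and the cyclic GMP kinase Prkg1 fell (-0.37 ± 0.08, limma adjusted p = 0.000373), 2 of 8 beside 24.6% of all genes. The same genes were called in DIO-SS hearts, at 0.30 and -0.26 (limma adjusted p = 0.000381 and 0.00648), and 0 of 8 in DIO-MS hearts. The list's median change was 0.05 in RW-SS and -0.02 in RW-MS hearts.

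Around Rcan1, 18 other genes of calcineurin, NFAT, MEF2 and GATA signalling were tested. In RW-MS hearts 0 rose and 1 fell, Rcan3 (-0.18 ± 0.06, limma adjusted p = 0.0473), a relative of Rcan1, which was not called without RW-MS 2, 6 and 8 (-0.11, adjusted p = 0.383). In RW-SS hearts 0 rose and 2 fell: the catalytic calcineurin subunit Ppp3cb (-0.33 ± 0.07, limma adjusted p = 0.000399) and the NFAT kinase Gsk3b (-0.38 ± 0.05, limma adjusted p = 2.38e-07). In DIO-SS hearts 5 rose and 0 fell, among them the regulatory subunit Ppp3r1 (0.16 ± 0.03, limma adjusted p = 1.06e-05) and Mef2c (0.14 ± 0.04, limma adjusted p = 0.00575). These 5 of 18 stand beside 23% of all genes higher in that comparison, in which 6 of 10 endothelial markers were also higher (list median 0.12, all genes 0.04), and the part of those cells was not tested. Gsk3b, Ppp3r1, Mef2c and Hdac5 passed in the sidestream interaction (0.30, 0.12, 0.20 and 0.33, limma adjusted p between 0.00159 and 0.0121). That is 4 of 18 genes, beside 28.4% of all genes in that interaction.

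Of 24 targets and cofactors of SRF and YAP, which sense actin tension, 0 rose and 4 fell in RW-MS hearts and 1 rose and 5 fell in RW-SS hearts. For these and the following lists the shares over all genes were 6.86% in RW-MS hearts (4% lower) and 24.6% in RW-SS hearts (13% lower). The cytoskeletal tropomyosin Tpm4 fell by 0.29 ± 0.05 in RW-SS and by 0.30 ± 0.05 in RW-MS hearts on the log2 scale (limma adjusted p = 1.64e-05 and 1.83e-05). The immediate early gene Egr1 fell by 0.73 ± 0.15 and 0.45 ± 0.14 in the same groups (limma adjusted p = 0.000337 and 0.0481), and Srf itself by 0.20 ± 0.06 in RW-MS hearts (limma adjusted p = 0.0182). Without RW-MS 2, 6 and 8, Tpm4 and Srf kept their RW-MS calls (adjusted p = 0.000402 and 0.0213) and Egr1 did not (-0.30, adjusted p = 0.342). Among 16 other sarcomere genes 0 were called in RW-MS hearts by limma, and in RW-SS hearts 1 rose and 2 fell, the Z-disc cap Tcap (-0.19 ± 0.06, limma adjusted p = 0.0257) and Nebl (-0.31 ± 0.10, limma adjusted p = 0.0168). Of 18 Z-disc and mechanosensing genes 0 were called in RW-MS hearts, and 3 rose and 2 fell in RW-SS hearts, with filamin Flnc (-0.23 ± 0.06, limma adjusted p = 0.00323) lower and the titin-binding Fhl1 (0.19 ± 0.06, limma adjusted p = 0.00860) higher. Around Tnfrsf12a, 12 genes of TWEAK receptor signalling gave 0 calls in RW-MS hearts and 2 rises and 1 fall (Relb, -0.21 ± 0.06, limma adjusted p = 0.00559) in RW-SS hearts, and the ligand itself was not measured by a single-gene probe set.

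In DIO-SC hearts, set against RW-SC hearts, 1 of 16 sarcomere genes was higher (Ttn, 0.15 ± 0.03, limma adjusted p = 0.00105) and 5 were lower, among them Tnnc1 (-0.13 ± 0.03, limma adjusted p = 0.000295) and Myom2 (-0.41 ± 0.10, limma adjusted p = 0.00244). Of the Z-disc genes 4 of 18 were higher and 1, Myot (-0.50 ± 0.10, limma adjusted p = 0.000516), was lower. Both counts, 6 of 16 and 5 of 18, stand beside 20.3% of all genes. The 6 tested fat cell markers had a median of -1.31 in the same comparison (1 called, lower), and their part in these counts was not tested. Of 17 genes on the list of wall stress and fibrosis, 2 rose (Mt1 and Mt2) and 2 fell (Thbs4 and Nppa) in RW-MS hearts. Nppa is also on the natriuretic peptide list above. The metallothioneins Mt1 and Mt2 rose with both smokes in RW mice (0.28 and 0.50 in RW-SS, 0.23 and 0.41 in RW-MS hearts, limma adjusted p between 0.00257 and 0.0475). Without RW-MS 2, 6 and 8 neither metallothionein was called in RW-MS hearts (0.20 and 0.29, adjusted p = 0.134 and 0.303). Thbs4 (-0.26, adjusted p = 0.109) and Nppa (0.11, adjusted p = 0.725) were not called there either.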

How the data were processed

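Affymetrix arrays were hybridized with total heart RNA (3 µg per mouse), and each deposited value is a log2 level of 1 probe set, made with RMA per the submitters' processing notes, which give no version. The software behind RMA is not given in the sources used here, and arrays have no depth, so their number limits the precision. The table held 22690 probe sets, 64 of them controls. The platform annotation gave 1 gene to 20393, several to 691 and none to 1606, and 20364 of the first were matched to RefSeq by Entrez identifier. The probe set with the highest mean stood for its gene. Of 12394 genes the lowest 25% by mean (below 4.90) were left out. One limma 3.58.1 model (R 4.3.3, lmFit and eBayes) of the 6 group means over all 45 arrays gave 9 comparisons, each adjusted by Benjamini-Hochberg over 9295 genes, two-sided. The same fit was also run on simulated data in which genes were drawn independently of each other. Sequences are from RefSeq. No 2 arrays were identical (r of 0.970 to 0.998 between arrays).

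The 8 members, the lists of neighbouring and marker genes and their order were chosen with earlier results of these data known, so they are described by counts and medians without a test of the list. Named were all members, at most 4 genes of a list, those of smallest adjusted p, and the 3 genes most like a member. The alternatives were the filter, the use of probe sets, eBayes and array weights, the arrays fitted, quantile normalization, replicate numbers as a block, marker means as covariates (those of fat cells, skeletal muscle and red cells chosen after seeing the data) and each array left out. Figures were drawn with Python 3.11.15 and matplotlib 3.10.9.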

Additional observations from a re-analysis of the deposited data

Results flagged for a closer look

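In 5 of the 48 sets of 1 member in 1 group, a single array stood apart from the rest of its group by Dixon's criterion. Chance alone flags about 1 in 20 such sets. Xirp1 read 8.077 on RW-MS 7, where the other RW-MS arrays lay between 8.424 and 8.65, and 8.236 on DIO-SC 2, where the others lay between 8.436 and 8.594. Myh7 read 10.185 on DIO-SS 2, above the 9.108 to 9.464 of the other DIO-SS arrays. Myh6 read 14.485 on RW-SS 7 (others 14.367 to 14.416), the array with the largest 3' minus 5' difference of Gapdh, and 14.441 on DIO-MS 6 (others 14.372 to 14.396). DIO-MS 6 also had the lowest Nppb value of all 45 arrays, 11.12.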

How the results depend on the processing

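Nppb, Tnfrsf12a and Rcan1 kept their calls in RW-MS and RW-SS hearts in all 16 alternatives and without any single array, with changes of -0.89 to -0.64 for Nppb, -0.77 to -0.54 for Tnfrsf12a and -0.36 to -0.22 for Rcan1. The number of members called in RW-MS hearts was 3 with the atrial covariate and 3 without RW-MS 2, 6 and 8. In DIO-SS hearts it was 2 with array weights, where Nppb passed (-0.35, limma adjusted p = 0.0466). Between the smokes in RW mice it was 1, Myh7, with the stricter filter (50% left out), after a further quantile normalization, and with the fat cell or skeletal muscle covariate. Leaving out single arrays gave 4 to 5 members in RW-MS, 3 to 4 in RW-SS, 0 to 1 in DIO-MS and 0 to 2 in DIO-SS hearts, 0 to 1 between the smokes in RW mice and 0 to 1 in the sidestream interaction. The changes themselves, with their signs, were recomputed for only some members. Myh6 was recomputed in no comparison, Xirp1 only with smoke in DIO mice, and Ankrd1 only with smoke against air. No member was recomputed between the smokes in DIO mice, and Tnfrsf12a was left out for the diet alone. The interactions covered Nppb, Tnfrsf12a and Rcan1, with Acta1 added for sidestream smoke. Among the changes recomputed, those whose sign turned were not called. Acta1 in RW-MS hearts was 0.106 with array weights and 0.0356 with the red cell covariate, and -0.164 to 0.0693 without single arrays. Myh7 in RW-SS hearts was 0.0228 after quantile normalization and -0.116 to 0.0951 without single arrays, and Nppb between the smokes in RW mice was -0.100 to 0.0355 without single arrays. The causes were not tested.

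With the replicate number of the titles, or the number in the descriptions, as a replicate block, the count between the smokes in RW mice was 1 (Myh7, 0.613 and 0.612, limma adjusted p = 0.0480 in each), and no other call of a member changed. Arrays of the same number did not deviate together as a rule (median r of -0.00 and -0.03 over 106 pairs). Single pairs ran from -0.56 to 0.47, so this median cannot show what the numbers stand for. The main fit used no pairing. The description numbers form a low and a high run in every group, and whether the runs were handled apart is not known. With the run as a covariate no call of a recomputed member changed.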
